A study of Homo sapiens with 10 samples.

Results

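The hypoxia response and glycolysis module comprised 40 genes, chosen by symbol: 4 sugar and lactate transporters, 17 glycolytic enzymes, 4 regulators of glycolytic flux, 13 other targets of hypoxia-inducible factor (HIF) and the 2 HIF alpha subunits HIF1A and EPAS1. The rule itself uses no measured value, but it was drawn up with earlier results of these data known. Each symbol matched 1 Ensembl identifier among the 63140 of the count table. Of the 40, 39 held enough counts to be tested, and CA9, a cell surface carbonic anhydrase, did not.

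Glycolysis breaks glucose down to pyruvate in the cytosol, and lactate dehydrogenase can pass the pyruvate on to lactate, which leaves the cell through monocarboxylate transporters. HIF is a dimer of an oxygen-regulated alpha subunit with the partner ARNT. In the presence of oxygen, prolyl hydroxylases of the EGLN family mark the alpha subunit, and the VHL ubiquitin ligase removes it. Without oxygen the dimer binds short core sequences such as ACGTG. It raises transcription of glucose transporters, most glycolytic enzymes, and genes of vessel growth, mitophagy and collagen modification. HIF alpha is governed mainly as a protein, which read counts do not measure, and tumour cells often keep glycolysis high in the presence of oxygen.

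The sequenced RNA came from cultures of HS-SY-II, an established line of human synovial sarcoma. Such tumours carry a fusion of SS18, a subunit of BAF chromatin remodelling complexes, with an SSX gene. The treated cells received 100 nM WA-68, a PROTAC degrader directed at BRD9, for 12, 24, 48 or 96 h, and the control cells received DMSO alone. A PROTAC is a bifunctional molecule that brings a target protein to a ubiquitin ligase, and BRD9 is a bromodomain protein that belongs to non-canonical BAF. Each of the 5 groups held 2 biological replicates of this single line, so the p-values measure the spread between such cultures and not between lines. When the DMSO cultures were harvested is not in the labels, and they name no low-oxygen culture, so time in culture and exposure cannot be told apart in the comparisons with DMSO. In bulk RNA, fewer cells of a kind and less RNA per cell cannot be told apart either.

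The libraries held 7349744 to 13200051 counts assigned to genes. Transcripts of BRD9 itself stayed between 88.2 and 108 CPM, which does not bear on degradation of the protein. TLE1, SS18, SSX1, BCL2, TBX18 and PAX3, listed beforehand to check the label of the line, were expressed in every library, TLE1 at 192 to 248 CPM. Counts per gene do not show the fusion of SS18 with an SSX gene. The leukocyte, endothelial and muscle markers PTPRC, CD3E, PECAM1, MYOD1 and MYOG were at 0 in every library, and the other 6 markers of foreign cell types reached at most 0.37 CPM. The second DMSO replicate stood apart by the GC content of its genes, with a Spearman correlation of 0.391 for its log2 deviation from the gene means. That correlation was -0.284 in replicate 1 of DMSO, which lay off in the opposite direction. It was -0.303 in replicate 2 of 48 h, 0.317 in replicate 2 of 96 h and between -0.232 and 0.032 elsewhere. The second 96 h replicate stood apart by its mitochondrial transcripts, which took 10.9% of counts there and 6.79% to 8.75% elsewhere. The log2 difference of replicate 2 from replicate 1 followed GC content with a Spearman correlation across genes of 0.571 in DMSO, -0.059 at 12 h, -0.167 at 24 h, -0.292 at 48 h and 0.289 at 96 h, and genes are not independent replicates. By this measure the 48 h pair was as far apart as the 96 h pair, in the opposite direction. Of the 17 enzymes, 15 were higher in replicate 2 of DMSO than in replicate 1, with a median log2 difference of 0.21, and 12 were higher in replicate 2 of 96 h, with a median of 0.07. At 48 h only 3 of 17 were higher in replicate 2, with a median of -0.14. Counts of calls are given with and without these libraries.

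Levels are TMM-scaled CPM, read counts brought to a common library size, which follow 1 gene between libraries and do not rank genes against each other, because they are not divided by gene length. A gene is called higher or lower where edgeR's quasi-likelihood test gave a Benjamini-Hochberg adjusted p under 0.05 over all 16382 genes tested, and changes are log2 fold changes with their standard error (SE).

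By 96 h of WA-68, 20 of the 25 transporters, enzymes and flux regulators were lower, beside 6.86% of all genes tested. HK2 was lower by 2.14-fold and ENO1 by 1.88-fold. NDRG1 was higher from 12 h on and stood 1.74-fold above DMSO at 96 h. At 12 h, 6 members were lower and 1 was higher, against 1.92% and 1.23% of all genes tested called lower and higher. At 24 h, 9 were lower and 1 was higher (background 2.25% and 1.34%). At 48 h, 15 were lower and 1 was higher (background 5.38% and 4.01%). At 96 h, 24 of 39 were lower and 1 was higher (background 6.86% and 6.14%). The single member called higher was NDRG1 at every time. The median log2 fold change over the 39 members was -0.21, -0.28, -0.29 and -0.39 at 12, 24, 48 and 96 h, beside medians over all genes tested between -0.01 and 0.00. The size of this median depended on the DMSO library used. Without replicate 1 of DMSO it was -0.31, -0.34, -0.36 and -0.44. Without replicate 2 of DMSO it was -0.09, -0.16, -0.20 and -0.41. A joint edgeR test of the 4 times called 20 of the 39 members and 10.9% of all genes. Of the members, 7 were first called at 12 h, 3 at 24 h, 7 at 48 h and 9 at 96 h, and 13 at no time.

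The early counts depended on single libraries. At 12 h the number of members lower ran from 0 without replicate 1 of 12 h to 12 without replicate 1 of DMSO. It was 2 without replicate 2 of DMSO, and 3 when replicate 2 of 12 h or either 24 h library was left out. At 24 h it ran from 0 without replicate 2 of 24 h, and 1 without replicate 1 of 24 h, to 18 without replicate 1 of DMSO, and it was 4 without replicate 2 of DMSO. At 48 h it ran from 5 without replicate 2 of 48 h to 18 without replicate 1 of DMSO. At 96 h it stayed between 19 and 23 without any single library. With both libraries that stood apart left out together, 7, 11, 16 and 21 members were lower at the 4 times, and 1, 1, 1 and 3 were higher. Of the 25 calls at 96 h, 16 held without each library in turn, against 1 of 7 at 12 h (NDRG1), 0 of 10 at 24 h and 5 of 16 at 48 h (HK2, PGK1, ENO1, LDHA and BNIP3). In DESeq2 the calls of BNIP3 at 12 h, of SLC2A1, HK2, PFKFB3 and HILPDA at 24 h and of PFKFB4 at 96 h were lost (adjusted p from 0.053 to 0.116). With library size only, those of PGK1, ENO1, PFKFB3 and BNIP3 at 12 h, HK2, LDHA, PFKFB3 and HILPDA at 24 h, SLC16A1 and PDK1 at 48 h, and PFKM, BNIP3L and KDM3A at 96 h were lost (adjusted p from 0.0528 to 0.122). Without both libraries that stood apart, those of BNIP3 at 12 h, HK2 and PFKFB3 at 24 h, and PFKM, PFKFB4 and KDM3A at 96 h were lost (adjusted p from 0.0676 to 0.396). With RLE factors that of KDM3A at 96 h was lost (adjusted p = 0.0539).

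**Figure D1:**
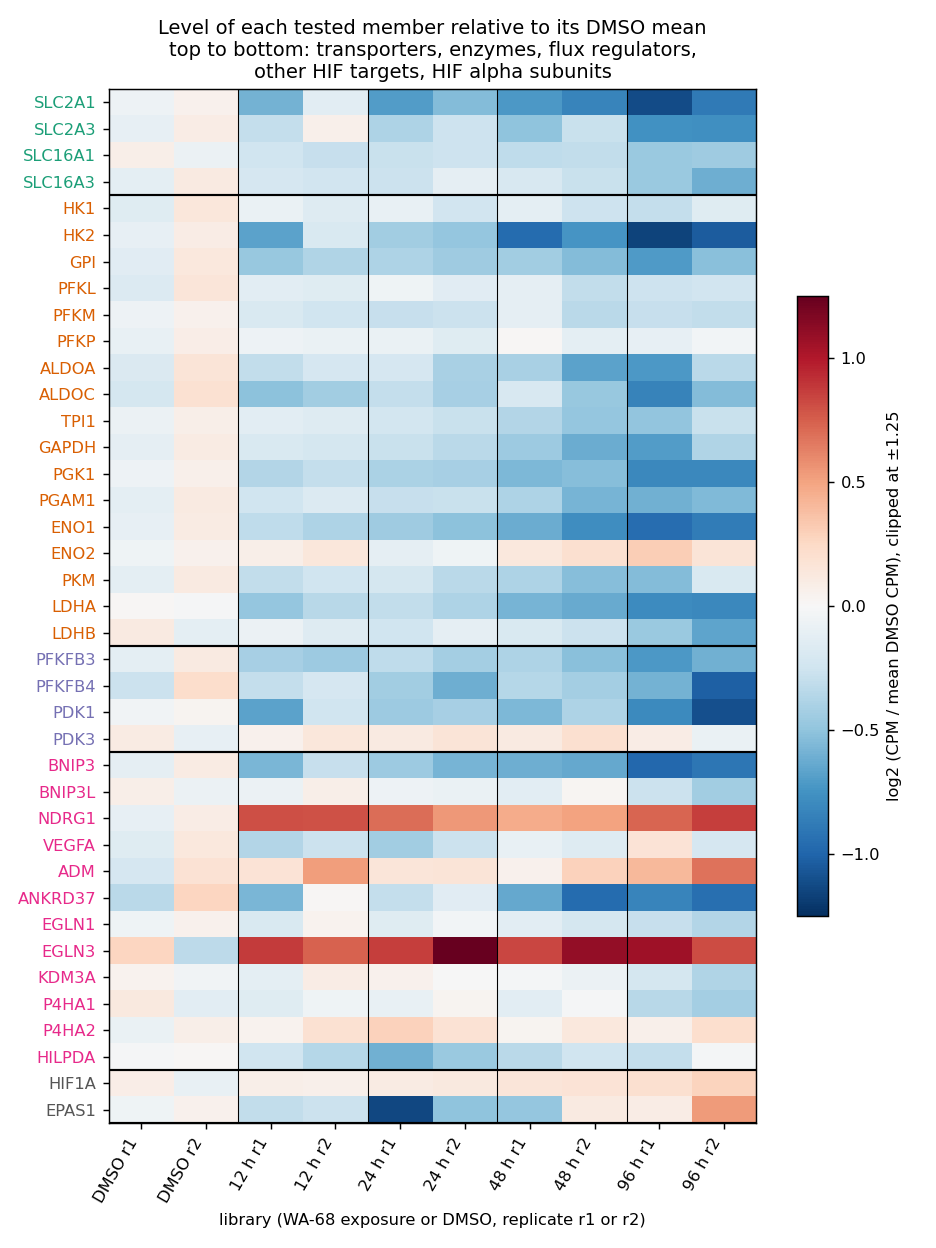
Level of each of the 39 tested members in each of the 10 libraries, as the log2 ratio of its CPM to its mean CPM in DMSO (colour, clipped at the ends of the scale), with members grouped by role from top to bottom. Blue, lower than DMSO, is deeper at 96 h than at 12 h in most transporter, enzyme and flux regulator rows. ENO2, PFKP and PDK3 do not follow this, and the group means of ALDOA, TPI1, GAPDH and PKM are lowest at 48 h. NDRG1 is red in all 8 treated libraries.

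The transporters carry glucose in and lactate out, and all 4 were called lower by 96 h, beside 6.86% of all genes. SLC2A1 (GLUT1; ENSG00000117394, chromosome 1, 42925375 to 42959176 on GRCh38), the basal glucose transporter, stood at 23.6 and 25.7 CPM in DMSO, 16.3 and 22.5 after 12 h, 15.2 and 16.9 after 24 h, 15.0 and 13.9 after 48 h and 11.3 and 13.3 after 96 h. All 8 treated libraries lay below both DMSO libraries, and the 96 h libraries were the lowest. The log2 fold changes were -0.34, -0.61, -0.76 and -1.01 (SE 0.14 to 0.16), with edgeR adjusted p = 0.242, 0.0219, 0.00229 and 8.98e-05, so that 12 h was not called and 96 h was 2.01-fold lower. The 24 h call was lost without replicate 2 of DMSO or either 24 h library (adjusted p up to 0.219), and the 48 h call without replicate 2 of 48 h (adjusted p = 0.0547). SLC2A3 (GLUT3), a glucose transporter of high affinity, stood at 12.7 and 14.5 CPM in DMSO, 11.1 and 14.2 after 12 h, 10.4 and 11.4 after 24 h, 9.59 and 11.2 after 48 h and 8.05 and 7.999 after 96 h. It overlapped DMSO at 12 h and was called only at 96 h among the comparisons with DMSO (-0.75, SE 0.17, edgeR adjusted p = 0.00499). SLC16A1 (MCT1), a lactate carrier, stood at 153 and 138 CPM in DMSO, 123 and 119 after 12 h, 120.4 and 122 after 24 h, 117 and 118 after 48 h and 106 and 107 after 96 h. Its treated libraries lay below both DMSO libraries throughout, and it was called at 48 h (-0.31, edgeR adjusted p = 0.026, lost without 7 of the 10 libraries in turn) and at 96 h (-0.45, SE 0.089, edgeR adjusted p = 0.00108). The antisense gene SLC16A1-AS1 overlaps it and held 4510 counts against 11353, and reads of the pair cannot be told apart without the strand setting of the counting, which is not given in the sources used here. SLC16A3 (MCT4), the lactate exporter of glycolytic cells, stood at 118 and 139 CPM in DMSO, 111 and 109 after 12 h, 107 and 119 after 24 h, 112 and 106 after 48 h and 93.3 and 84.3 after 96 h. One 24 h library reached the DMSO range, and only 96 h was called (-0.53, SE 0.099, edgeR adjusted p = 0.000744). CSNK1D overlaps the span of SLC16A3 on the opposite strand and held 12733 counts against 10126. The 96 h calls of all 4 transporters held without each library in turn.

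The 17 enzymes carry out the steps from hexokinase to lactate dehydrogenase. Of them, 4, 5, 10 and 13 were called lower at 12, 24, 48 and 96 h, beside 1.92%, 2.25%, 5.38% and 6.86% of all genes. Called higher were 0, beside 1.23%, 1.34%, 4.01% and 6.14% of all genes, and with 17 genes 0 is near that background. The median log2 fold changes of the enzymes were -0.22, -0.28, -0.46 and -0.53. Summed over the enzymes, their share of all counts went from 0.617% and 0.690% in the DMSO libraries to 0.566% and 0.579% after 12 h, 0.558% and 0.538% after 24 h, 0.506% and 0.473% after 48 h, and 0.450% and 0.485% after 96 h. Every treated library lay below both DMSO libraries on this sum.

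The sequence before a start site is printed for 4 members, because HIF acts through sequences such as ACGTG. These 4 have the smallest joint p among members whose first listed window opens with at least 50 bases outside the exons of the gene. They come from RefSeq promoter windows on GRCh38.p14, each cut where an exon of the gene in GENCODE v29 begins, and read 5′ to 3′ on the strand of the gene. The stretches are chr11:18394313-18394387 on the plus strand, chrX:78103998-78104173 on the plus strand, chr2:74833877-74833980 on the plus strand and chr10:131982014-131982173 on the minus strand. The PGK1 stretch lies upstream of the start used by RefSeq but in an intron of a longer GENCODE transcript, whose start at 77910739 opens the annotated span. Capitals mark each ACGTG on either strand, which reads CACGT on the other strand, and the 2 overlap where CACGTG stands, a sequence also known as an E-box.
LDHA: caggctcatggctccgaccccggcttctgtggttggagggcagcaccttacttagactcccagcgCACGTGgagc
PGK1: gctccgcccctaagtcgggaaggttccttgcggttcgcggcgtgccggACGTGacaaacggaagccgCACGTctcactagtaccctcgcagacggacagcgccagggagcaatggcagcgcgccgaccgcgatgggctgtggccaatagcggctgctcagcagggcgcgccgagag
HK2: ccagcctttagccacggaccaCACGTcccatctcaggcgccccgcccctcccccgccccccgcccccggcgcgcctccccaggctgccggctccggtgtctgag
BNIP3: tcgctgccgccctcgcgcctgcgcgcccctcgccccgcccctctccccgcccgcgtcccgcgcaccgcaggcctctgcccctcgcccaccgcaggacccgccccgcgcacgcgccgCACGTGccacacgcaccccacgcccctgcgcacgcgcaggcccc
In all 250 bases before the first listed start, LDHA held 3 such runs, PGK1 and HK2 held 2 each and BNIP3 held 1. ACGTG occurred in 23 of 62 member windows (37.1%), beside 18.5% of all 35116 windows of that length. By gene, 20 of the 34 members with a window held it in at least 1 window (58.8%, beside 21.7% of 27305 genes): 11 of 17 enzymes, 1 of 2 transporters, 3 of 4 flux regulators, 5 of 9 other HIF targets and 0 of 2 HIF alpha subunits. SLC2A3, SLC16A1, BNIP3L, NDRG1, VEGFA and HILPDA had no window and were not searched. No sequence other than ACGTG was searched for. In the first listed window, ENO1, the member with the smallest joint p, held none, and ENO2, which was not called, held 1. The members were listed as genes of a response that acts through such sequences, so these shares are no test. Members also had more windows per gene (62 for 34, beside 35116 for 27305), which can raise a share counted by gene. A match of letters is a description and no sign of binding.

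ENO1 (alpha-enolase; ENSG00000074800, chromosome 1, 8861000 to 8879250), which makes phosphoenolpyruvate, stood at 591 and 682 CPM in DMSO, 512 and 488 after 12 h, 469 and 446 after 24 h, 414 and 371 after 48 h and 330.1 and 346 after 96 h. Every treated library lay below both DMSO libraries, and the group means fell at each step. The log2 fold changes were -0.35, -0.48, -0.70 and -0.91 (SE 0.089 to 0.090; edgeR adjusted p = 0.0295, 0.00269, 2.69e-05 and 3.48e-07), which is 1.88-fold lower at 96 h, and the joint test gave an edgeR adjusted p of 2.74e-06. The 12 h call was lost without replicate 2 of DMSO or any 12 or 24 h library (adjusted p up to 0.319), and the 24 h call without replicate 2 of 24 h (adjusted p = 0.105). ENO2, the neuronal enolase that carries out the same reaction, stood at 58.7 and 62.9 CPM in DMSO, 63.8 and 67.2 after 12 h, 56.1 and 58.5 after 24 h, 66.7 and 69.9 after 48 h and 75.4 and 68.1 after 96 h. Its 24 h libraries were below both DMSO libraries and those at 12, 48 and 96 h above both. No comparison with DMSO was called for ENO2 in the 10 libraries (0.11, -0.08, 0.17 and 0.25), and at 96 h the edgeR adjusted p was 0.0888. It was called higher at 96 h with a GC correction (0.24, adjusted p = 0.0361) and without both libraries that stood apart (0.37, adjusted p = 0.00763).

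LDHA (ENSG00000134333, chromosome 11, 18394388 to 18408425), which turns pyruvate into lactate, stood at 518 and 511 CPM in DMSO, 369 and 404 after 12 h, 417 and 393 after 24 h, 343 and 332 after 48 h and 297 and 295 after 96 h. The 2 DMSO libraries were close together and all treated libraries lay below them, with 24 h no lower than 12 h on average. Its log2 fold changes were -0.41, -0.35, -0.61 and -0.80 (SE 0.083 to 0.084; edgeR adjusted p = 0.00614, 0.0197, 6.78e-05 and 7.35e-07). The 12 h call was lost without replicate 1 of 12 h and the 24 h call without either 24 h library (adjusted p up to 0.325). LDHB, the subunit associated with lactate use, stood at 204 and 175 CPM in DMSO, 179.8 and 169.8 after 12 h, 159 and 175 after 24 h, 166 and 157 after 48 h and 137 and 119.6 after 96 h. It overlapped DMSO at 12 and 24 h and was called at 96 h (-0.56, SE 0.10, edgeR adjusted p = 0.000414), where both libraries were the lowest of the 10.

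PGK1 (ENSG00000102144, chromosome X, 77910739 to 78129296), a step that yields ATP, stood at 439 and 481 CPM in DMSO, 356 and 373 after 12 h, 349.9 and 345 after 24 h, 312 and 318 after 48 h and 264 and 262 after 96 h. Replicates were tight and the groups declined in order without overlap with DMSO. The log2 fold changes of PGK1 were -0.33, -0.40, -0.54 and -0.81 (SE 0.083 to 0.084; edgeR adjusted p = 0.0264, 0.00669, 0.000199 and 6.52e-07). The 12 h call was lost without replicate 2 of DMSO or any 12 or 24 h library (adjusted p up to 0.319), and the 24 h call without either 24 h library (adjusted p up to 0.138). The annotated span of PGK1 overlaps ATP7A on the same strand, which held 6312 counts against 32426. HK2 (ENSG00000159399, chromosome 2, 74833981 to 74893359), the inducible hexokinase that traps glucose in the cell, stood at 47.4 and 54.1 CPM in DMSO, 31.9 and 44.5 after 12 h, 37.6 and 36.2 after 24 h, 26.0 and 30.5 after 48 h and 22.8 and 24.7 after 96 h. The 12 h libraries of HK2 were far apart, while both 96 h libraries lay far below both DMSO libraries. HK2 had the lowest log2 fold change of any member at 96 h (-1.10, SE 0.14, edgeR adjusted p = 7.32e-06), 2.14-fold lower, after -0.41, -0.46 and -0.84 at the earlier times (adjusted p = 0.0894, 0.0471 and 0.000269). The 24 h call was lost without replicate 2 of DMSO or any 24 or 48 h library (adjusted p up to 0.351), and without both libraries that stood apart (adjusted p = 0.0676). HK1, the housekeeping hexokinase, was not called at any time (-0.11, -0.16, -0.19 and -0.22) and ran from 88.1 to 119 CPM. It was called lower at 96 h with a GC correction (-0.23, adjusted p = 0.0333) and, like PFKL, at 48 and 96 h without replicate 1 of DMSO.

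GPI, which converts glucose 6-phosphate to fructose 6-phosphate, stood at 584 and 707 CPM in DMSO, 466 and 496 after 12 h, 493 and 476 after 24 h, 479 and 443 after 48 h and 395 and 449 after 96 h. It was called at all 4 times (-0.42, -0.41, -0.48 and -0.61; edgeR adjusted p = 0.013, 0.0137, 0.002 and 9.97e-05), with the 2 DMSO libraries apart and all 8 treated ones below them. Without replicate 2 of DMSO or either treated library of the same time its 12 and 24 h calls were lost (adjusted p up to 0.219 and 0.213), and the 48 h call was lost without replicate 2 of 48 h (adjusted p = 0.07). GAPDH, often used as a reference transcript, stood at 1594 and 1860.1 CPM in DMSO, 1516 and 1486 after 12 h, 1422 and 1371 after 24 h, 1257 and 1127 after 48 h and 1063 and 1332 after 96 h. Its 96 h libraries were far apart, yet both were below DMSO, and it was called at 48 and 96 h (-0.53 and -0.53, SE 0.097, edgeR adjusted p = 0.000989 and 0.000564). Rows of 65 GAPDH pseudogenes held 923 counts, 0.716% of those of GAPDH. PGAM1, the phosphoglycerate mutase, stood at 145 and 170.3 CPM in DMSO, 133 and 140.3 after 12 h, 129 and 129.6 after 24 h, 121 and 105 after 48 h and 104 and 108 after 96 h. It was called at 48 and 96 h as well (-0.48 and -0.57, SE 0.098, edgeR adjusted p = 0.00292 and 0.000284), and the rows of its 13 pseudogenes held 2.31% of its counts. The 48 h calls of GAPDH and PGAM1 were lost without replicate 2 of 48 h (adjusted p = 0.051 and 0.124).

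The remaining called enzymes were ALDOA, TPI1 and PKM at 48 and 96 h, and ALDOC and PFKM at 96 h alone. Their log2 fold changes at 96 h ran from -0.68 for ALDOC, an aldolase of brain, to -0.30 for PFKM, the muscle phosphofructokinase. Each of these 5 calls at 96 h was lost without at least 1 library, always including replicate 1 of 96 h, with adjusted p up to 0.249 for PKM, the pyruvate kinase gene. The 48 h calls of ALDOA, TPI1 and PKM were lost without replicate 2 of 48 h, and those of ALDOA and PKM also without replicate 2 of DMSO (adjusted p up to 0.206). ALDOA, the ubiquitous aldolase, shares its span with ENSG00000285043 on the same strand (778 counts against 10848), and the span of PFKM overlaps SENP1 on the opposite strand (9127 counts against 12061). The phosphofructokinases PFKL and PFKP were not called at any time in the 10 libraries. PFKL, the liver form, was called lower at 96 h with a GC correction (-0.24, adjusted p = 0.017). PFKP, the platelet form, was the flattest enzyme, with log2 fold changes of -0.07, -0.11, -0.05 and -0.07.

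**Figure D2:**
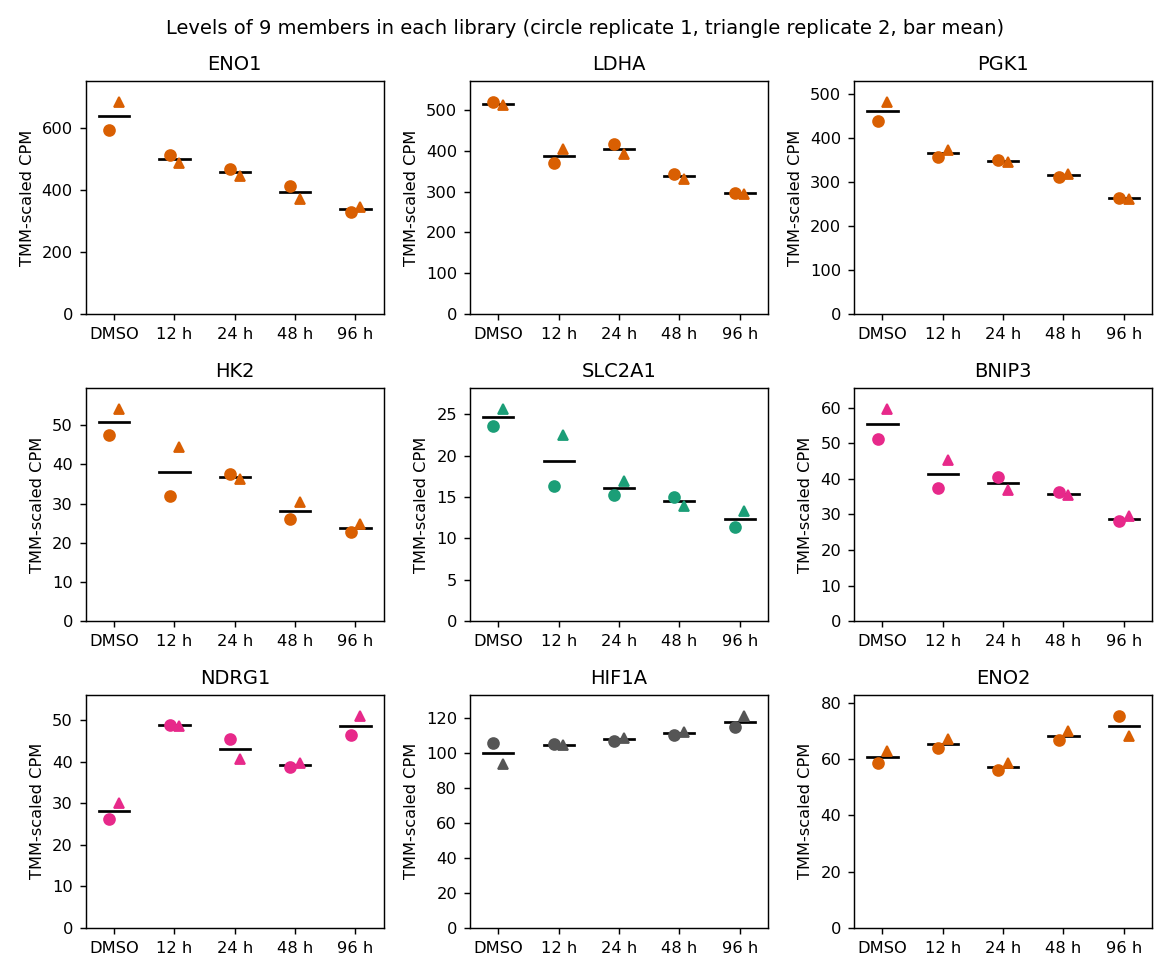
TMM-scaled CPM of 9 members in each library (circle replicate 1, triangle replicate 2, bar group mean) for DMSO and the 4 exposure times, with each vertical axis starting at 0. ENO1, LDHA, PGK1, HK2, SLC2A1 and BNIP3 are lowest at 96 h, NDRG1 is above DMSO in all treated libraries, and HIF1A and ENO2 were called at no time.

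Regulators of flux set how much glucose passes through phosphofructokinase and how much pyruvate enters mitochondria. PFKFB3, which makes the phosphofructokinase activator fructose 2,6-bisphosphate, stood at 64.7 and 76.4 CPM in DMSO, 53.0 and 51.4 after 12 h, 56.6 and 52.4 after 24 h, 53.8 and 49.2 after 48 h and 43.0 and 46.6 after 96 h. All treated libraries were below DMSO, and it was called lower at each time (-0.43, -0.37, -0.45 and -0.65; edgeR adjusted p = 0.0199, 0.0447, 0.00741 and 0.00013), although only the 96 h call held without each library, and without replicate 2 of DMSO the other 3 were lost (adjusted p up to 0.427 over all libraries). PFKFB4, a related enzyme, stood at 10.2 and 14.3 CPM in DMSO, 9.95 and 10.6 after 12 h, 9.04 and 8.02 after 24 h, 9.59 and 9.13 after 48 h and 8.15 and 6.03 after 96 h. It was called at 96 h (-0.73, SE 0.20, edgeR adjusted p = 0.0137), and that call was lost without replicate 2 of DMSO or replicate 2 of 96 h (adjusted p up to 0.122), without both, and in DESeq2. PDK1, a kinase that shuts off pyruvate dehydrogenase, stood at 53.1 and 56.0 CPM in DMSO, 34.3 and 46.0 after 12 h, 39.9 and 41.0 after 24 h, 37.0 and 41.8 after 48 h and 31.5 and 25.4 after 96 h. Both 96 h libraries were the lowest, and the log2 fold changes were -0.44, -0.43, -0.47 and -0.92 (SE 0.12 to 0.13; edgeR adjusted p = 0.0505, 0.0537, 0.0181 and 2.76e-05), which is 1.90-fold lower at 96 h. The 48 h call was lost without replicate 2 of DMSO or either 48 h library (adjusted p up to 0.191). PDK3, another kinase of the same enzyme, was not called at any time and ran from 198 to 245 CPM.

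The other HIF targets among the members, which act outside glycolysis, did not share 1 direction. Of the 12 tested, 1 was called higher at each time, beside 1.23%, 1.34%, 4.01% and 6.14% of all genes. Called lower were 1, 2, 1 and 4 at 12, 24, 48 and 96 h, beside 1.92%, 2.25%, 5.38% and 6.86%. With 12 genes, 1 call in either direction is close to the background at 48 h, as is 1 call higher at 96 h. Of 20 further HIF targets tested outside the members, 10 were called lower and 0 higher at 96 h. For the 12 member targets, the median log2 fold changes are given next. Their median log2 fold changes were -0.04, -0.05, -0.07 and -0.23, beside -0.22, -0.28, -0.46 and -0.53 for the enzymes. The difference between the 2 lists was not tested.

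NDRG1 (ENSG00000104419, chromosome 8, 133237171 to 133302022), a stress-responsive gene widely used as a hypoxia marker, stood at 26.1 and 30.0 CPM in DMSO, 49.0 and 48.7 after 12 h, 45.5 and 40.8 after 24 h, 38.7 and 39.7 after 48 h and 46.4 and 51.1 after 96 h. All 8 treated libraries lay above both DMSO libraries, with 12 and 96 h the highest and 48 h the lowest of the treated groups. The log2 fold changes were 0.81, 0.63, 0.49 and 0.80 (SE 0.11; edgeR adjusted p = 0.000124, 0.0018, 0.007 and 2.55e-05), 1.75-fold higher at 12 h and 1.74-fold at 96 h. The 12 and 96 h calls held without each library in turn, while the 24 h call was lost without replicate 1 of 24 h (0.55, adjusted p = 0.0677) and the 48 h call without replicate 1 of DMSO (0.38, adjusted p = 0.0536) or replicate 2 of 48 h (0.49, adjusted p = 0.07). The level of NDRG1 at 96 h against that at 12 h did not pass the test (-0.01, SE 0.11, edgeR adjusted p = 0.976). In that comparison 6 of the 17 enzymes were lower at 96 h, beside 1.74% of all genes.

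BNIP3 (ENSG00000176171, chromosome 10, 131966455 to 131982013), a mitophagy receptor and a HIF target like NDRG1, went the other way. It stood at 51.1 and 59.6 CPM in DMSO, 37.3 and 45.2 after 12 h, 40.4 and 36.9 after 24 h, 36.2 and 35.5 after 48 h and 28.0 and 29.6 after 96 h. No treated library reached DMSO, and the means fell at each step. The log2 fold changes of BNIP3 were -0.42, -0.51, -0.62 and -0.94 (SE 0.11 to 0.12; edgeR adjusted p = 0.039, 0.00991, 0.00113 and 7.54e-06), 1.92-fold lower at 96 h. The 12 h call was lost without 7 of the 10 libraries in turn (adjusted p up to 0.49) and without both libraries that stood apart, and the 24 h call without replicate 2 of DMSO or either 24 h library (adjusted p up to 0.223). Rows of 44 BNIP3 pseudogenes held 2.68% of its counts. BNIP3L, the related mitophagy receptor, stood at 81.2 and 73.4 CPM in DMSO, 73.7 and 81.5 after 12 h, 74.1 and 73.0 after 24 h, 70.7 and 78.7 after 48 h and 64.3 and 57.1 after 96 h. It overlapped DMSO up to 48 h and was called at 96 h (-0.35, SE 0.099, edgeR adjusted p = 0.0202), a call lost without replicate 1 of DMSO or replicate 2 of 96 h (adjusted p up to 0.158).

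P4HA1, a collagen prolyl hydroxylase subunit, stood at 113 and 94.6 CPM in DMSO, 93.1 and 100.2 after 12 h, 97.1 and 106 after 24 h, 94.6 and 102 after 48 h and 81.4 and 77.3 after 96 h. The 96 h libraries were the lowest of the 10, and 96 h was called (-0.39, SE 0.10, edgeR adjusted p = 0.0103), though not without replicate 1 of DMSO or replicate 2 of 96 h (adjusted p up to 0.129). KDM3A, a histone H3 lysine demethylase, stood at 184 and 174 CPM in DMSO, 165 and 191 after 12 h, 187 and 179 after 24 h, 177 and 171 after 48 h and 154 and 139 after 96 h. Its 96 h call (-0.29, SE 0.095, edgeR adjusted p = 0.0431) was lost without 8 of the 10 libraries in turn (adjusted p up to 0.241). HILPDA, a lipid droplet protein, stood at 24.6 and 25.2 CPM in DMSO, 21.0 and 19.4 after 12 h, 16.5 and 18.1 after 24 h, 19.8 and 21.0 after 48 h and 20.2 and 24.6 after 96 h. It was called at 24 h only (-0.52, SE 0.13, edgeR adjusted p = 0.027), a call lost without replicate 2 of DMSO or either 24 h library (adjusted p up to 0.246), in DESeq2 (adjusted p = 0.0951) and with library size only (adjusted p = 0.0528).

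VEGFA, ADM, ANKRD37, EGLN1, EGLN3 and P4HA2 were not called in any comparison. VEGFA, the main growth factor for vessels, ran from 53.4 to 81.2 CPM, and its log2 fold changes were -0.31, -0.34, -0.12 and 0.01. Without replicate 1 of DMSO it was called lower at 12 and 24 h (-0.45 and -0.48, adjusted p = 0.0294 and 0.0194), and without both libraries that stood apart it was called higher at 96 h (0.32, adjusted p = 0.0235). EGLN3, an oxygen-sensing prolyl hydroxylase, had large but imprecise log2 fold changes of 0.75, 1.19, 0.91 and 0.90 (SE 0.38 to 0.41; edgeR adjusted p = 0.395, 0.0862, 0.173 and 0.147). It stood at only 1.24 and 0.827 CPM in DMSO and 2.15 and 1.82 at 96 h, with all 8 treated libraries above both DMSO libraries. The span of EGLN3 overlaps SPTSSA on the same strand, which held 2229 counts against 170. EGLN1, the main hydroxylase of HIF alpha, ran from 18.4 to 24.5 CPM with a lower mean at each later time (-0.32 at 96 h, edgeR adjusted p = 0.111). ADM, the vasodilator adrenomedullin, was at 0.56 at 96 h (SE 0.20, edgeR adjusted p = 0.0715), and it was called there with a GC correction (0.54, adjusted p = 0.0471) and without replicate 2 of DMSO (0.74, adjusted p = 0.0312). P4HA2, the sister subunit of P4HA1, ran from 22.0 to 28.4 CPM, and ANKRD37, an ankyrin repeat protein, from 1.11 to 2.60 CPM. The spans of P4HA2 and ANKRD37 overlap PDLIM4 (1769 counts against 2299) and UFSP2 (915 against 152) on the opposite strand. CA9 held 12 counts over all 10 libraries, 8 of them in replicate 1 of DMSO, too few to compare.

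**Figure D3:**
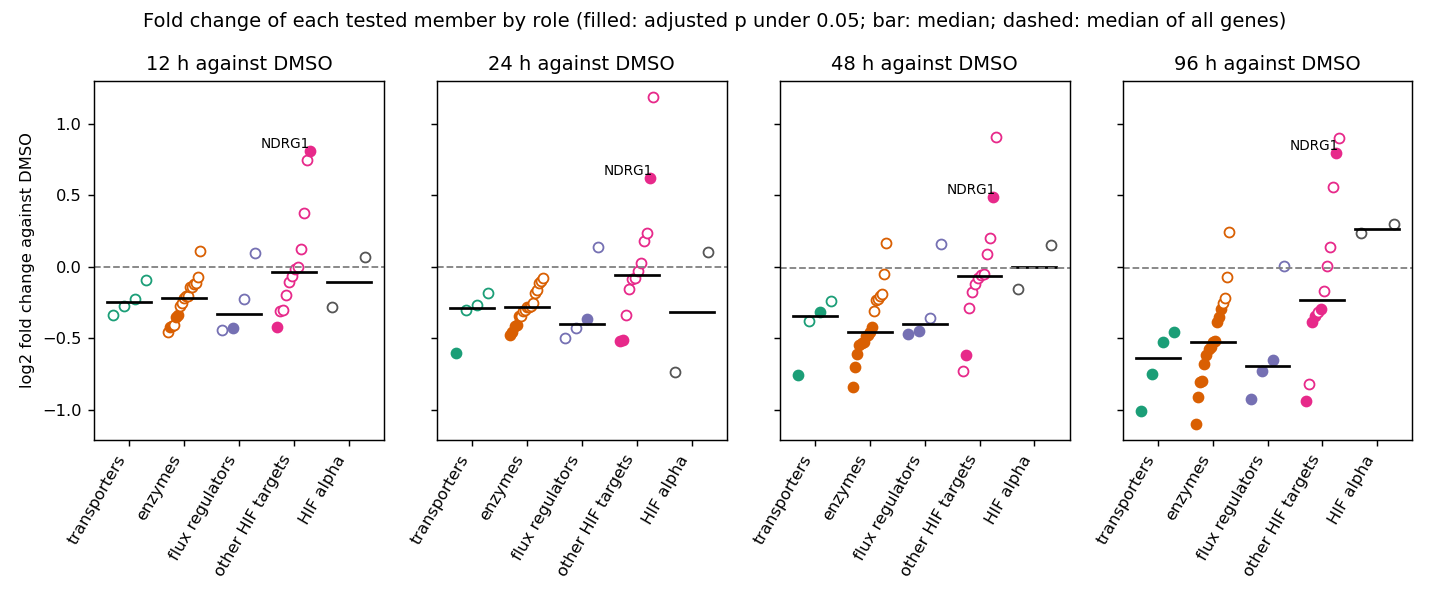
Log2 fold change against DMSO of each tested member at each time, by role (filled points, edgeR adjusted p under 0.05; bar, median of the role; dashed line, median of all genes tested). The enzyme median moves from -0.22 at 12 h to -0.53 at 96 h, and NDRG1 is the only filled point above 0 in any panel.

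HIF1A (ENSG00000100644, chromosome 14, 61695513 to 61748259), the widely expressed HIF alpha subunit, stood at 106 and 93.9 CPM in DMSO, 106 and 105 after 12 h, 107 and 109 after 24 h, 111 and 112 after 48 h and 115 and 122 after 96 h. Its mean was higher at each later time, and the libraries from 24 h on lay above both DMSO libraries. The log2 fold changes of HIF1A were 0.07, 0.11, 0.16 and 0.24 (SE 0.091; edgeR adjusted p = 0.792, 0.616, 0.33 and 0.0898), so none was called. At 96 h it was called with a GC correction (0.29, adjusted p = 0.00848), with library size as the only scaling (0.28, adjusted p = 0.0458) and without replicate 1 of DMSO (0.33, adjusted p = 0.0329). EPAS1 (HIF2 alpha) stood at 1.87 and 2.01 CPM in DMSO, 1.57 and 1.61 after 12 h, 0.879 and 1.37 after 24 h, 1.39 and 2.10 after 48 h and 2.06 and 2.81 after 96 h, and was not called (-0.28, -0.74, -0.15 and 0.30, SE 0.35 to 0.40). With SEs of this size, a change in EPAS1 as large as the enzyme median was not detectable at this depth.

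Ratios of read counts within a library do not depend on library scaling, and they were formed for pairs of related genes as a description without a test. ENO1 to ENO2 went from 10.1 and 10.8 in DMSO to 8.02 and 7.25 after 12 h, 8.35 and 7.62 after 24 h, 6.21 and 5.31 after 48 h, and 4.38 and 5.09 after 96 h. HK2 to HK1 went from 0.487 and 0.454 in DMSO to 0.258 and 0.253 at 96 h, and PDK1 to PDK3 from 0.232 and 0.283 to 0.139 and 0.126. In these 3 pairs the 96 h ratios lay below both DMSO ratios. LDHA to LDHB, both called lower at 96 h, went from 2.54 and 2.93 to 2.17 and 2.46, also below both DMSO ratios. The same held for PFKL and PFKM to PFKP, ALDOC to ALDOA, SLC2A1 to SLC2A3, BNIP3 to BNIP3L and P4HA1 to P4HA2. It did not hold for SLC16A3 to SLC16A1 or PFKFB4 to PFKFB3, whose 96 h ratios overlapped DMSO. NDRG1 to BNIP3, a pair of HIF targets, went from 0.511 and 0.504 to 1.31 and 1.08 after 12 h, 1.12 and 1.11 after 24 h, 1.07 and 1.12 after 48 h, and 1.66 and 1.73 after 96 h. No treated library overlapped DMSO on that ratio.

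**Figure D4:**
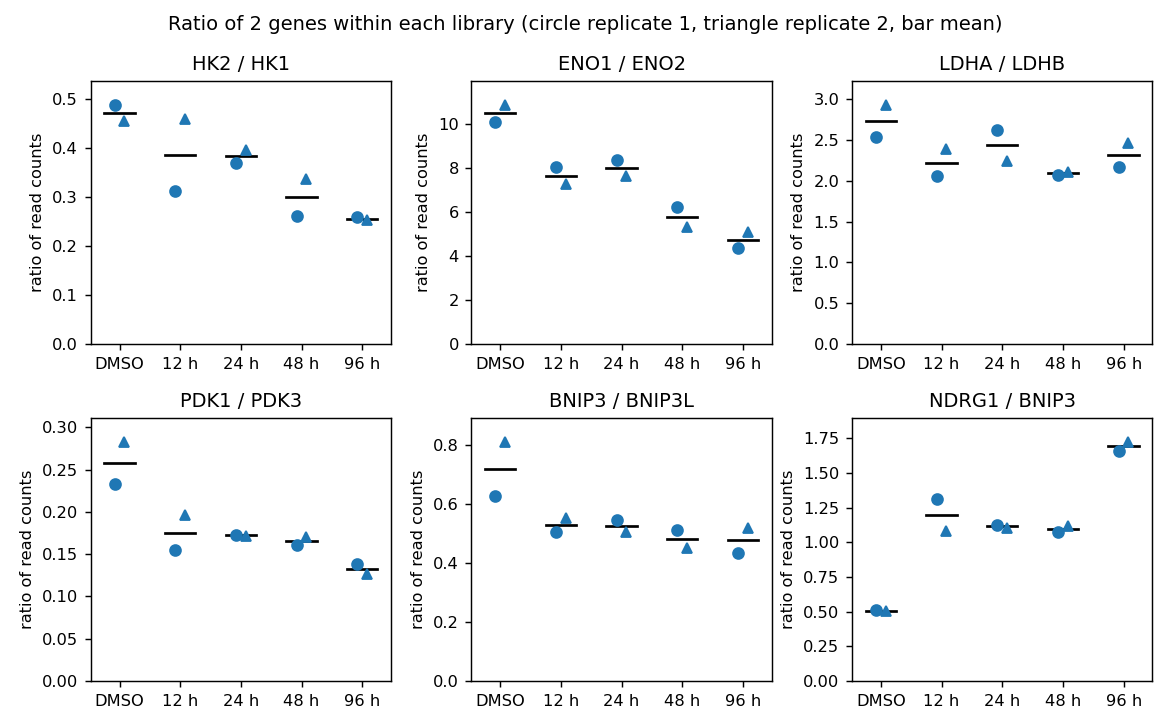
Ratio of read counts of 2 genes within each library (circle replicate 1, triangle replicate 2, bar group mean), not divided by gene length, with each axis starting at 0. ENO1 to ENO2 goes from 10.1 and 10.8 in DMSO to 4.38 and 5.09 at 96 h, while NDRG1 to BNIP3 goes from 0.511 and 0.504 to 1.66 and 1.73.

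The comparison of 96 h with 12 h asks which members moved on after the first harvest, and it does not use the DMSO libraries as a reference. Longer exposure and longer culture cannot be told apart in it. Lower at 96 h were 11 members, beside 1.74% of all genes, and higher were 0, beside 2.39%. The 11 were SLC2A1, SLC2A3, HK2, PGK1, PGAM1, ENO1, LDHA, LDHB, PDK1, BNIP3 and BNIP3L. For HK2 the log2 difference was -0.69 (SE 0.14, edgeR adjusted p = 0.0045) and for ENO1 it was -0.56 (SE 0.090, edgeR adjusted p = 0.000556). GPI and PFKFB3, lower from 12 h on, did not pass this test (-0.19 and -0.22, edgeR adjusted p = 0.299 and 0.272). With a GC correction both were called lower (-0.22 and -0.26, edgeR adjusted p = 0.0454 and 0.0418). So were SLC16A3, ALDOA, TPI1 and GAPDH, which were not called in the main fit. Only the call of ENO1 held without each library in turn. The count of 11 was 1 without replicate 2 of 12 h, 6 without replicate 1 of 12 h, and 7 without replicate 1 of 96 h or either 24 h library. Without replicate 2 of 96 h, VEGFA was called higher (0.49, adjusted p = 0.0244), and with a GC correction HIF1A was (0.27, adjusted p = 0.0315).

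Of 57 further pathway genes, 47 were tested. At 12, 24, 48 and 96 h, 3, 3, 6 and 12 of them were called lower, beside 1.92%, 2.25%, 5.38% and 6.86% of all genes, and 0, 0, 1 and 1 higher, beside 1.23%, 1.34%, 4.01% and 6.14%. DDIT4, a HIF and stress target that restrains mTORC1, had the strongest fall, from 38.9 and 51.2 CPM in DMSO to 19.3 and 24.5 at 12 h and 11.3 and 10.8 at 96 h (-2.01, SE 0.16, edgeR adjusted p = 1.21e-08, 4.02-fold lower). The transketolase TKT, of the pentose phosphate pathway, and the collagen lysyl hydroxylase PLOD1 were called lower at all 4 times, with -0.59 and -0.47 at 96 h. MIF, a cytokine, and STC2, a secreted glycoprotein, were called lower at 48 and 96 h (-0.51 and -0.87 at 96 h). DLAT, a subunit of pyruvate dehydrogenase, was lower at 96 h (-0.35, SE 0.097, edgeR adjusted p = 0.0159). TIGAR, which lowers fructose 2,6-bisphosphate, went the other way, from 12.1 and 12.4 CPM in DMSO to 17.0 and 18.0 at 96 h (0.51, SE 0.14, edgeR adjusted p = 0.0192). PFKFB2, which makes fructose 2,6-bisphosphate, was called higher at 48 h alone (0.36, SE 0.11, edgeR adjusted p = 0.0408). Of the 8 tested genes of the HIF machinery, 0 were called at any time, which with so few genes is near the background. By the rule for a list without calls, the 2 named are those with the highest mean CPM over the 10 libraries, not divided by length. They are CUL2, a scaffold of the VHL ligase (-0.09 at 96 h), and ARNT, the HIF beta subunit, which stood at 134 and 131 CPM in DMSO and 149.8 and 169 at 96 h (0.26, SE 0.090, edgeR adjusted p = 0.0598).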

How the data were processed

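The deposited table holds raw read counts per gene identifier for 10 libraries, as whole numbers without normalization. Per the labels' protocols, stranded poly(A) libraries were sequenced as paired ends. The submitters' processing notes name bcl2fastq, FastQC, Trim Galore with cutadapt, STAR, GRCh38 and featureCounts. Not given in the sources used here were the annotation release, tool versions, strandedness of the counting and the rule for reads that map more than once. Such reads could move counts between a member and its pseudogenes.

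Counts were tested in edgeR 4.0.16 under R 4.3.3 (filterByExpr by group, TMM scaling, 1 mean per group over all 10 libraries, quasi-likelihood F test, Benjamini-Hochberg adjustment over 16382 genes). All groups shared 1 estimate of the spread, with 5 residual degrees of freedom (18.5 prior), and the biological coefficient of variation common to all genes was 7.17%. The SE is the size of the log2 fold change over the square root of F. The fitting code was tested on simulated data. Alternatives were RLE factors, library size only, no filter, DESeq2 1.42.0, a replicate block, a GC offset (GC known for 95.8% of genes tested), both together, each library left out, and a change of at least 1.5-fold. Positions come from GENCODE v29.

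The members, lists and tests were chosen with earlier results of these data known. Values in every library are given for NDRG1, HIF1A, EPAS1 and each called member, for enzymes the 8 with the smallest joint p. From each list of further pathway genes, up to 4 called genes with the smallest joint p are named, or the 2 most abundant where none was called. The upstream sequences were picked after the fits, as described beside them. All comparisons with DMSO share the same 2 DMSO libraries. Same-numbered replicates did not deviate together (correlations from -0.12 to 0.19 over 10 pairs of groups), so the numbers were not used as pairs.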

Additional observations from a re-analysis of the deposited data

Results flagged for a closer look

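For 11 members the level at 96 h of WA-68 differed from that at 12 h by a test of the difference itself (edgeR, adjusted over all genes tested), and each was lower at 96 h. Exposure and time in culture cannot be told apart in this difference. Among the transporters the log2 difference of 96 h from 12 h was -0.67 for SLC2A1 and -0.65 for SLC2A3. Among the enzymes it was -0.69 for HK2, -0.47 for PGK1, -0.37 for PGAM1, -0.56 for ENO1, -0.39 for LDHA and -0.44 for LDHB. It was -0.48 for the flux regulator PDK1. For the mitophagy receptors it was -0.52 for BNIP3 and -0.35 for BNIP3L. The adjusted p ran from 0.000556 for ENO1 to 0.0474 for BNIP3L, and only the difference of ENO1 passed without each library in turn. In DESeq2 the calls of SLC2A1, SLC2A3, PDK1 and BNIP3L were lost (adjusted p from 0.0603 to 0.16). Without both libraries that stood apart those of SLC2A3, PDK1 and BNIP3L were lost, and with library size only those of PDK1 and BNIP3L. With a replicate block those of PDK1 and BNIP3L were lost (edgeR adjusted p = 0.0501 and 0.0624). The call of BNIP3L was also lost with RLE factors (adjusted p = 0.0546) and without the filter (adjusted p = 0.0653).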

How the results depend on the processing

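No member changed direction together with a call under any alternative run. The number of members lower at 12 h, 6, was 2 with library size only, 10 without the filter, 11 with a GC offset, 11 with the replicate block and GC offset together, and 0 with a change of at least 1.5-fold. At 24 h, 9 became 5 with library size only, 5 in DESeq2, 16 with a GC offset, 16 with block and offset, and 1 at 1.5-fold. At 48 h, 15 became 5 at 1.5-fold, where 0 were higher. At 96 h, 24 became 12 at 1.5-fold, and the number higher, 1, became 2 with library size only, 4 with a GC offset, 4 with block and offset, and 3 without both libraries that stood apart, an alternative chosen after seeing the data. For 96 h against 12 h, 11 lower became 7 in DESeq2, 17 with a GC offset and 3 at 1.5-fold, and 0 higher became 1 with a GC offset, 1 with block and offset, and 1 without both libraries. Leaving out each library in turn gave 0 to 12, 0 to 18, 5 to 18 and 19 to 23 lower at the 4 times, 1, 0 to 1, 0 to 1 and 1 to 2 higher, 1 to 14 lower and 0 to 1 higher for 96 h against 12 h, and 17 to 22 in the joint test. Without 1 library its group has a single sample, assumed to vary like the others. The cause of these shifts was not tested. Calls over all genes moved in the same runs. Of 16382 genes, 1006 were higher at 96 h in the main fit. That became 1228 with library size only, 1595 with a GC offset and 1558 with block and offset. With a GC offset, the 4 members higher of 39 are near the share of all genes. Lower at 12 h were 315 genes, which became 173, 716 and 706 in those runs. At 24 h, 369 lower became 205, 812 and 790. Without the filter, 483 of 32684 genes were lower at 12 h. Library size as the only scaling moved the median log2 fold change of all genes to 0.06, 0.06, 0.05 and 0.04 at the 4 times, and the share of calls that were higher from 38.95%, 37.4%, 42.7% and 47.3% to 62.4%, 59.5%, 60.3% and 60.2%.

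With a replicate block 6, 8, 15 and 23 members were lower at the 4 times and 9 at 96 h against 12 h, beside 6, 9, 15, 24 and 11 without it, and the joint test called 20 either way. The numbers do not pair the samples, since same-numbered libraries correlated between -0.12 and 0.19 in their deviations from the group means. Depth limits ANKRD37, EGLN3 and EPAS1, which stood below 3 CPM in every library, and CA9, which was not tested.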

Other observations

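Among the further pathway genes, 6 outside those described in the report were also called lower at 96 h, chosen here after their values were seen. AK4, a mitochondrial adenylate kinase (0.281 to 2.96 CPM), and FAM162A, a mitochondrial protein (1.68 to 5.36 CPM), had log2 fold changes of -1.93 (SE 0.56, edgeR adjusted p = 0.0228) and -1.04 (SE 0.31, edgeR adjusted p = 0.0257). PPFIA4, MXI1, ERO1A and SLC6A8 ran from -0.61 for PPFIA4 to -0.38 for SLC6A8. Between 12 and 96 h, DDIT4 fell by 0.98 on the log2 scale (edgeR adjusted p = 0.00148) and TIGAR rose by 0.74 (edgeR adjusted p = 0.00451), the only 2 of the 47 called in that comparison.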
